A study of Rattus norvegicus with 54 samples.

Results

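Rat cortical neurons carrying an rMBD3 virus were compared with neurons carrying a GFP virus after 24 h in magnesium-free medium. The 6 libraries, 3 per construct, were chosen by their labelled construct, medium and time, out of 54 in the series. They were paired by the culture number, 1 to 3, that the labels give each library. All cultures came from the cortex of rat embryos at day 18 of gestation and were labelled as neurons. One group received an adeno-associated virus (AAV) carrying rMBD3 and GFP under the SYN promoter (AAV_SYN_rMBD3_GFP, called rMBD3 here), and the other an AAV carrying GFP alone under that promoter (AAV_SYN_GFP, called GFP here). Both groups therefore carried virus and GFP, and both were in medium without magnesium, a condition labelled epileptic. The 3 untransfected cultures of the same medium and time served as a reference.

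Mbd3 encodes a methyl-CpG-binding domain protein that is a subunit of NuRD, a complex that combines histone deacetylase and nucleosome remodelling activities and is best known for repressing transcription. The synapsin (SYN) promoter is used to drive expression in neurons, so other cells of a culture may express the construct less. Magnesium ions block the NMDA type of glutamate receptor at rest, and removing them is a common way to induce epileptiform discharges in cultured neurons.

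Total counts ran from 25506115 to 29115012 in the rMBD3 libraries and from 19380599 to 26003021 in the GFP libraries. The mitochondrial chromosome took 1.95% to 2.31% of the counts in rMBD3 and 1.89% to 2.66% in GFP libraries. A floor of 3 counts corresponded to 0.101 to 0.153 CPM (counts scaled to library size), and this floor covers counting error only. GFP and untransfected culture 1 stood apart, and rMBD3 culture 1 less so. The correlation of log2 CPM was 0.963 to 0.984 among the 6 libraries of cultures 2 and 3, but GFP culture 1 reached 0.926 to 0.951 with the other 8 libraries. Untransfected culture 1 reached 0.902 to 0.930 and rMBD3 culture 1 0.921 to 0.969. A range over 8 libraries includes culture 1 libraries, and that of rMBD3 culture 2 was 0.902 to 0.981. Median correlations with the other 8 libraries were 0.936 for GFP culture 1, 0.914 for untransfected culture 1 and 0.959 for rMBD3 culture 1. They were 0.966 and 0.976 for rMBD3 cultures 2 and 3. Some results are also given without culture 1 libraries. Non-overlap counts and genes named for size rest on all 3 cultures only. A result given with culture 1 alone was thus not shown to be unchanged without it. The count table names genes by Ensembl identifier and none matched a symbol. Mbd3, pathway genes and neuronal or glial markers were therefore not analysed by name, and the labelled cell type was not checked. Whether a gene given below is Mbd3 itself, with reads from the virus, was not tested.

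After 24 h without magnesium, 4 of 17172 tested genes separated rMBD3 from GFP cultures. ENSRNOG00000028956 and ENSRNOG00000020030 were higher with rMBD3, and ENSRNOG00000019942 and ENSRNOG00000009803 were lower. The first stood 25.4-fold higher and the second 3.22-fold higher. Those lower with rMBD3 were scarce transcripts that were at or near 0 in all 3 rMBD3 libraries. The test was edgeR's quasi-likelihood test with adjusted p under 0.05, which called 0.0233% of the tested genes. The same 4 genes passed when culture number was a block (0.0233%).

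ENSRNOG00000028956 lies on the plus strand of chromosome 7 from 9313098 to 9320165 (mRatBN7.2), with 1923 exonic bases in 7 blocks. It had 7990, 2662 and 2291 CPM in rMBD3 cultures 1, 2 and 3, and 161, 162 and 188 CPM in the GFP cultures. Its untransfected values were 249, 179 and 195 CPM. The rMBD3 libraries lay far above all 6 others, and culture 1 was the highest of the rMBD3 cultures. The fitted log2 fold change against GFP was 4.67 ± 0.38 (SE, adjusted p = 3.32e-11, edgeR). Within the pairs the log2 difference was 5.64, 4.04 and 3.61. The gene took 0.814%, 0.270% and 0.230% of all counts of the rMBD3 libraries, against 0.0162% to 0.0192% in GFP libraries.

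The 4 tested genes flanking ENSRNOG00000028956 along chromosome 7 had fitted log2 fold changes of -1.64 to -0.24. None of these passed the threshold (smallest adjusted p = 0.802, edgeR). GFP and untransfected cultures differed in ENSRNOG00000028956 by -0.29 ± 0.32 on the log2 scale (adjusted p = 1, edgeR). Against untransfected cultures the rMBD3 cultures were higher by 4.38 ± 0.37 (adjusted p = 1.63e-10, edgeR). With only the 6 libraries in the fit, the log2 fold change was 4.66 and its adjusted p was 0.326 (edgeR). With the 24 h libraries of all groups it was 4.67 and passed (adjusted p = 8.84e-04, edgeR).

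ENSRNOG00000020030 lies on the minus strand of chromosome 16 from 18924722 to 18935997, with 1673 exonic bases in 9 blocks. It had 45.5, 37.6 and 42.4 CPM in the rMBD3 cultures and 11.5, 16.8 and 10.7 CPM in the GFP cultures. The untransfected cultures had 14.2, 8.69 and 5.10 CPM. All 3 rMBD3 libraries were above all 6 libraries without rMBD3, and they spread little (41.8 ± 3.98 CPM, SD, n = 3). The log2 fold change against GFP was 1.69 ± 0.29 (SE, adjusted p = 0.00522, edgeR), with pair differences of 1.98, 1.16 and 1.98.

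Against untransfected cultures ENSRNOG00000020030 was higher with rMBD3 by 2.17 ± 0.29 on the log2 scale (adjusted p = 2.26e-05, edgeR). Its nearest tested neighbour ended 196 bases away and had a log2 difference of -0.80 ± 0.54, and none of its 4 neighbours passed the threshold (smallest adjusted p = 0.924, edgeR). The call against GFP did not survive the removal of any one culture number (log2 fold change 1.53 to 1.98, adjusted p = 0.0957 to 0.778, edgeR). Without GFP culture 1 alone it was 1.60 (adjusted p = 0.114, edgeR).

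**Figure D1:**
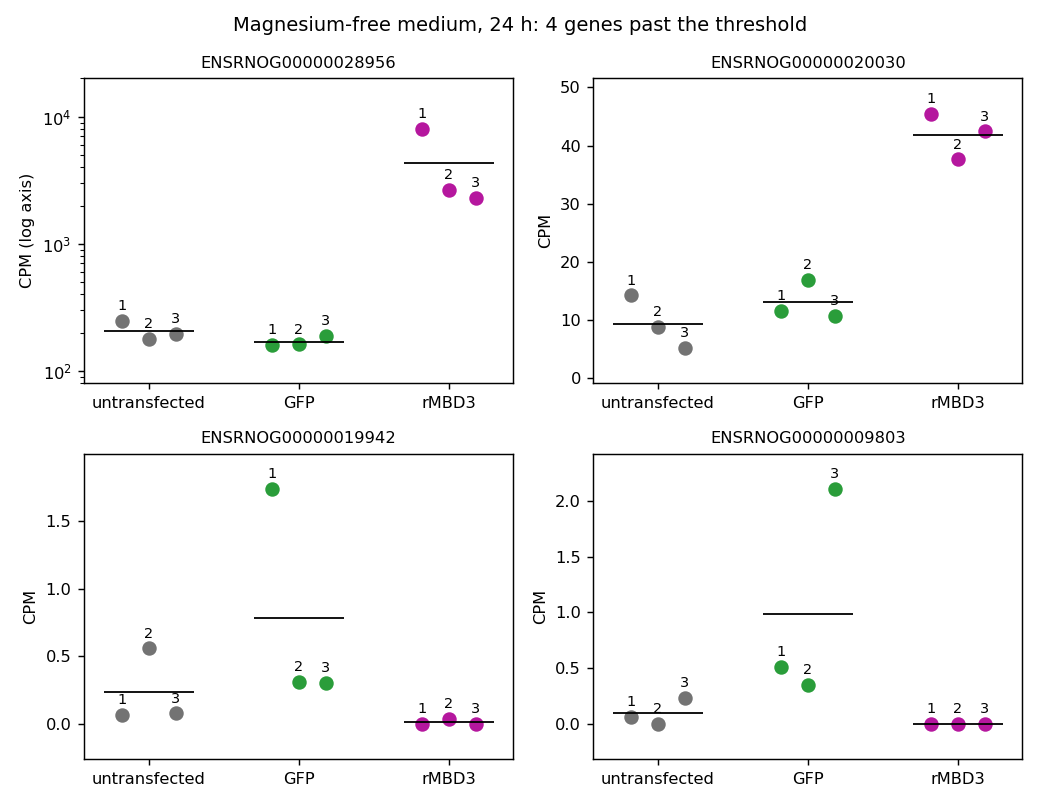
Level of each gene past the threshold in the 9 libraries of magnesium-free medium at 24 h, in CPM. Numbers are cultures and lines are group means. The upper genes separate rMBD3 from both other groups. For the lower genes the untransfected cultures lie near the rMBD3 cultures in part.

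ENSRNOG00000019942 lies on the plus strand of chromosome 1 from 84002267 to 84024453, with 2781 exonic bases in 6 blocks. It had 0, 1 and 0 counts in the rMBD3 cultures, against 34, 8 and 8 in the GFP cultures and 2, 16 and 2 in the untransfected cultures. GFP culture 1 alone held most of the GFP counts. Over each group's libraries, the pooled GFP level was 56.5 times the pooled rMBD3 level, with an exact 95% interval of 9.69 to 2277 that covers counting error only. Without GFP culture 1 the ratio was 24.9 (3.86 to 1042), from 16 GFP counts against 1. The fitted difference passed the threshold (adjusted p = 0.0184, edgeR). Without GFP culture 1 it did not (adjusted p = 0.501, edgeR), nor without cultures 1 or 3 of every group (adjusted p = 0.652 and 1). Its difference from untransfected cultures was below the call as well (adjusted p = 0.116, edgeR).

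ENSRNOG00000009803 is a single-exon gene of 744 bases on the plus strand of chromosome 2, from 153125676 to 153126419. A gene on the opposite strand overlaps its start, and counting used strand. It had no counts in any rMBD3 culture, against 10, 9 and 56 in the GFP cultures. The untransfected cultures had 2, 0 and 6 counts. With the rMBD3 libraries set to a floor of 3 counts each, the mean GFP level was at least 8.90-fold higher, and at least 3.87-fold higher without GFP culture 3. The fitted difference passed the threshold (adjusted p = 0.0184, edgeR), but not after the removal of any one culture number from every group (adjusted p = 0.102 to 1).

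For ENSRNOG00000009803 it was the GFP cultures that stood above the rest. The mean was 0.988 ± 0.970 CPM in GFP and 0.0970 ± 0.118 CPM in untransfected cultures (SD, n = 3), the latter below the floor. The fitted log2 difference of GFP from untransfected was 3.32 ± 0.98, which missed the threshold (adjusted p = 0.797, edgeR). The rMBD3 and untransfected cultures did not differ past the threshold either (adjusted p = 0.286, edgeR).

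The same genes were then followed through the other 5 combinations of medium and time, whose libraries are separate from these. ENSRNOG00000028956 was higher with rMBD3 in each, by 4.62 to 6.81 on the log2 scale. In magnesium-free medium its mean was 13860 ± 5672 CPM at 2 h, 9828 ± 799 CPM at 6 h and 4314 ± 3189 CPM at 24 h (SD, n = 3). The change of this effect between 24 and 2 h, -2.15 ± 0.46, missed the threshold (adjusted p = 0.293, edgeR). It passed with DESeq2 (-2.15, adjusted p = 0.0375), and without culture 1, where it was -2.83 (adjusted p = 0.00869, edgeR).

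ENSRNOG00000020030 had its highest fitted difference at 24 h in both media. Its log2 fold change in magnesium-free medium was 0.21 ± 0.28 at 2 h, 0.80 ± 0.28 at 6 h and 1.69 ± 0.29 at 24 h. With magnesium the values were -0.11 ± 0.28, 0.53 ± 0.28 and 1.33 ± 0.28 (SE), and the last passed on its own (adjusted p = 0.0257, edgeR). The test of 24 h against 2 h without magnesium gave 1.48 ± 0.40, which missed the threshold over all genes (unadjusted p = 6.01e-04, adjusted p = 1.00, edgeR). At 24 h the difference between media was 0.36 ± 0.39 (adjusted p = 1.00, edgeR).

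The scarce genes had a higher mean CPM at 2 h than at 24 h in each construct and medium. ENSRNOG00000019942 had 16, 32 and 36 counts in the rMBD3 cultures at 2 h without magnesium and 17, 14 and 38 in the GFP cultures. ENSRNOG00000009803 had 20, 69 and 94 counts in rMBD3 and 13, 38 and 74 in GFP cultures at that time. Both groups overlapped then.

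At 24 h with magnesium ENSRNOG00000009803 again was near 0 with rMBD3 (0, 0 and 2 counts) and present with GFP (21, 5 and 17 counts). Untransfected cultures in that medium had 0, 1 and 0 counts. ENSRNOG00000019942 had 9, 4 and 6 counts with rMBD3 and 12, 4 and 40 with GFP there, so those groups overlapped. None of the tests of a change in effect between media or times passed for either gene with edgeR (smallest adjusted p = 0.293). DESeq2 called the change for ENSRNOG00000009803 between 24 and 2 h (adjusted p = 0.0156) and between 24 and 6 h (adjusted p = 0.00581), and not that for ENSRNOG00000019942 (adjusted p = 0.340 and 0.153).

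**Figure D2:**
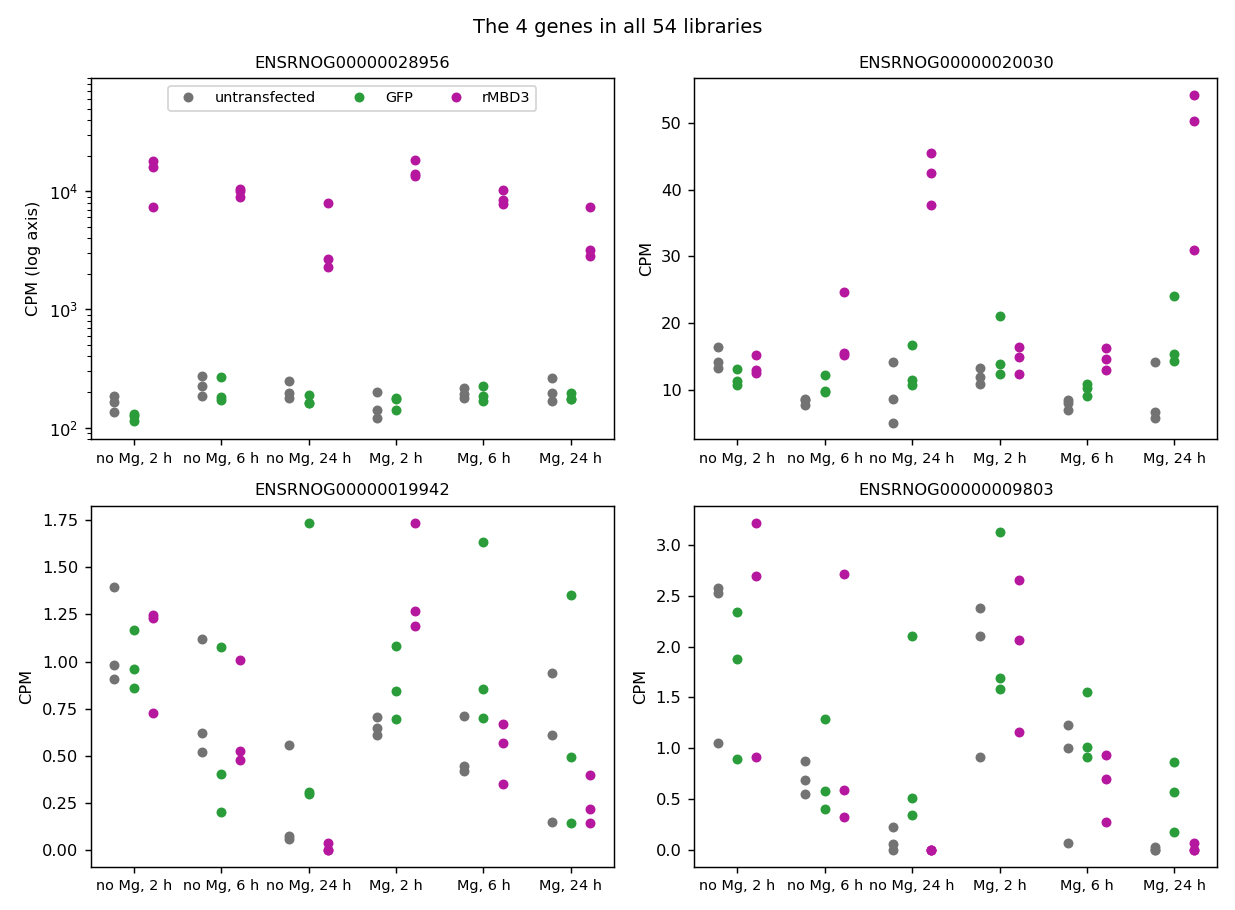
Level of the 4 genes in CPM in each of the 54 libraries, by medium and time, with 3 libraries per construct and condition. ENSRNOG00000028956 is above the other constructs in all 6 conditions, ENSRNOG00000020030 at 24 h in both media. ENSRNOG00000009803 is at or near 0 at 24 h in rMBD3 and untransfected cultures.

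Across all tested genes, few differences between the constructs passed the threshold in this medium and at this time. An unadjusted p under 0.05 was reached by 1008 genes (5.87%), 462 higher and 546 lower with rMBD3. This count was 623 without GFP culture 1 alone, 1079 without culture 1 in all groups and 445 without culture 3. In 1347 genes (7.84%) the rMBD3 and GFP libraries did not overlap, 765 higher and 582 lower. Both criteria together were met by 392 of the 17172 tested genes. With so few libraries per group, many genes meet either criterion when the constructs do not differ. The shares expected then were not computed, so these counts are a description and not counts of changed genes.

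The precision depended on the level. The median SE of the log2 fold change was 1.42 for the 3610 genes below 0 on the log2 CPM scale and 0.223 for the 3983 genes above 6. In between it was 0.670, 0.377 and 0.257 for classes from 0 to 2, 2 to 4 and 4 to 6. A change of 1 on the log2 scale was therefore under 1 SE for most scarce genes and over 4 SE for most abundant genes.

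The cultures differed in how far the constructs lay apart. Among 8789 genes with a mean log2 CPM of at least 4, the SD of the log2 difference was 0.532 in culture 1, 0.280 in culture 2 and 0.462 in culture 3. Differences over 1 on the log2 scale were found for 6.57% of these genes in culture 1, 0.956% in culture 2 and 5.78% in culture 3. Across these genes the pair differences correlated with r of 0.150 between cultures 1 and 2, 0.492 between 1 and 3 and 0.429 between 2 and 3. These correlations are over genes, which are not independent, and each pair has its own libraries.

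**Figure D3:**
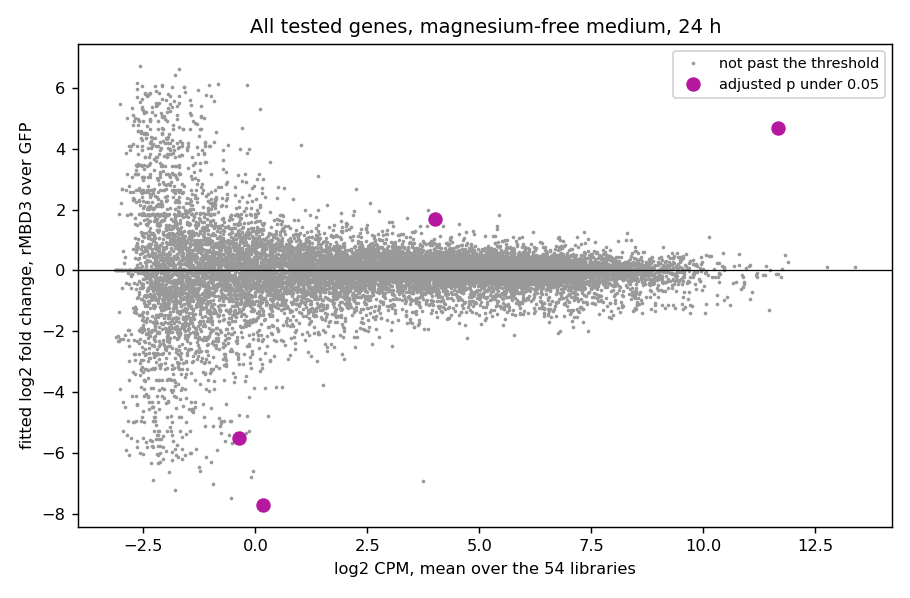
Fitted log2 fold change of rMBD3 over GFP against mean log2 CPM for the 17172 tested genes, with the 4 genes past the threshold in colour. The vertical spread narrows with level, as the SE values show, and fitted values of genes at 0 in a group carry no bound.

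With a block for each culture within a time point, 17 genes passed (0.0990%), 8 higher and 9 lower, and these included the 4 above. The 13 further genes, 6 higher and 7 lower, had fitted log2 fold changes without the block of 0.45 to 2.69 and -6.60 to -1.35, and 1 of the lower genes had no count in a construct, so its fitted value is no bound. In medium with magnesium at 24 h all 13 had the same sign, as did 69.1% of all tested genes. At 2 h without magnesium all 6 higher and 5 of the 7 lower genes kept it, beside 55.03% of all tested genes. Their adjusted p without the block was 0.0958 to 0.887 (edgeR). DESeq2, the tool named in the labels, called 9 genes, 5 higher and 4 lower, again with the 4 above among them.

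Behind the called genes stood a set of 24 named for the size of their change, 12 in each direction. They had an unadjusted p under 0.01, one sign in all 3 pairs, no overlap between groups and, over the 6 libraries, a mean log2 CPM no lower than 1. Of these, 10 higher and 12 lower genes missed the threshold, and their values are a description of genes chosen by this same contrast. The higher genes had log2 fold changes of 1.11 to 2.69 (adjusted p = 0.0958 to 0.802, edgeR). The lower genes had -2.64 to -0.92 (adjusted p = 0.418 to 0.802, edgeR).

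Among the higher genes, one on chromosome 20 from 6199182 to 6228584 had 16.7, 15.0 and 15.0 CPM with rMBD3. It had 2.71, 1.67 and 2.86 CPM with GFP and 0.0941, 1.08 and 0.951 CPM in untransfected cultures. The 3 groups did not overlap, and its log2 fold change against GFP was 2.69 ± 0.67 (adjusted p = 0.361, edgeR). Over the other 5 conditions the mean effect was 2.12 (adjusted p = 1.29e-05, edgeR).

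A gene on chromosome 10 from 743685 to 838459 had 13.04, 28.2 and 17.1 CPM with rMBD3 against 7.97, 8.53 and 8.76 CPM with GFP. Its untransfected cultures had 3.76, 4.46 and 4.15 CPM, below every GFP culture. The log2 fold change was 1.21 ± 0.26 (adjusted p = 0.0958, edgeR), and with magnesium at 24 h it was 1.42 and passed the threshold (adjusted p = 0.0171, edgeR). A gene on chromosome 7 from 11133706 to 11184025 was more abundant, with 55.5, 115 and 72.9 CPM against 30.4, 55.1 and 25.4 CPM.

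The lower genes included abundant transcripts in which one GFP culture was close to rMBD3. A gene on chromosome 10 from 54063629 to 54090047 had 192, 144 and 164 CPM with rMBD3 and 501, 203 and 404 CPM with GFP. Its untransfected cultures had 680, 257 and 297 CPM, all above the rMBD3 cultures. A gene on chromosome 10 from 83700755 to 83729936 had 169.5, 125 and 129 CPM with rMBD3, 419, 179.5 and 326 CPM with GFP and 547, 173 and 237 CPM in untransfected cultures. Culture 2 had the lowest GFP value in 10 of the 12 lower genes and the smallest pair difference in 9.

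Culture 1 was the highest untransfected library in 11 of the 12 lower genes and the highest GFP library in 9. These are the libraries with the lowest correlations, and their part in the result was not tested. The untransfected cultures all lay above the rMBD3 cultures in 11 of the 12 lower genes, and all below them in 8 of the 12 higher genes, the called genes included. The untransfected mean was nearer to rMBD3 than to GFP in 1 of the 12 lower genes and in 3 of the 10 higher genes past no threshold. The share was 38.03% of all tested genes. The choice itself set the rMBD3 libraries apart from the GFP libraries, so all tested genes are an unlike reference. These positions of the untransfected cultures are a description and no support for a change.

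In libraries that the choice did not use, these genes mostly kept their sign. With magnesium at 24 h, 9 of the 10 higher genes were higher with rMBD3 (median log2 fold change 0.80) and all 12 lower genes were lower (median -1.01). Of all tested genes, 69.1% had one sign in both comparisons. In magnesium-free medium the sign held for 8 of 10 and 11 of 12 at 2 h, and for 7 of 10 and 11 of 12 at 6 h. The shares over all tested genes were 55.03% at 2 h and 58.9% at 6 h. These comparisons use the same culture numbers but no common library.

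**Figure D4:**
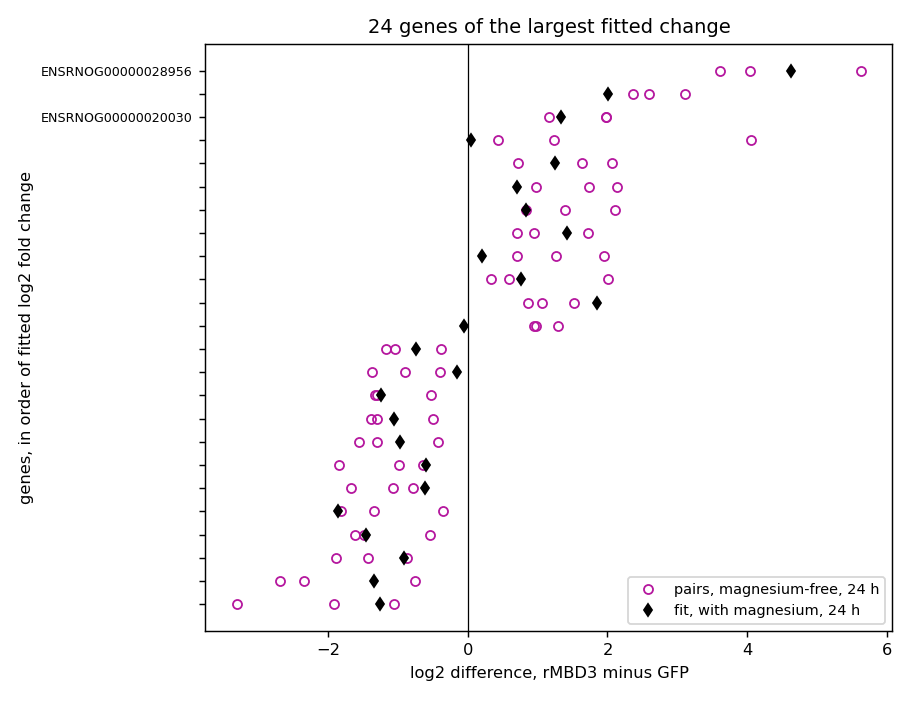
Log2 difference between rMBD3 and GFP within the 3 cultures (open circles) for the 24 genes chosen for size, with the fitted value in medium with magnesium at 24 h (diamonds). Rows run from the highest to the lowest fitted change and carry an identifier where the gene passed the threshold. In the lower genes 1 circle often lies nearer to 0, which was culture 2 in 9 of 12.

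The question of whether magnesium-free medium altered the rMBD3 effect was tested on the difference of effects. At 24 h no gene of 17172 passed between the media (0%, edgeR), with 587 at an unadjusted p under 0.05 and 2 genes by DESeq2. Between 24 and 2 h without magnesium no gene passed (0%, edgeR), with 530 at an unadjusted p under 0.05 and 4 by DESeq2. Between 24 and 6 h none passed (0%, edgeR), with 326 and 4 in the same order. Without culture 1 in all groups, 1029, 478 and 535 of 16998 genes had an unadjusted p under 0.05, in that order of comparisons. All these unadjusted counts are a description and not counts of changed genes. A missed threshold here does not show equal effects, since the SE of such differences is larger than that of a single effect.

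With magnesium at 24 h, 23 genes passed (0.134%), and ENSRNOG00000028956 was one of them. Of the 5 others that were higher there, all 5 had a positive value without magnesium (median 0.85 here and 1.33 there). Of the 17 lower genes, 15 had a negative value here. Of all tested genes, 51.8% were positive and 47.4% negative here. An unadjusted p under 0.05 with the same sign was found here for 12 of these 22 genes, beside 2.69% of all tested genes in the higher and 3.18% in the lower direction, and ENSRNOG00000020030 was the one that passed the threshold.

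A broader list came from the rMBD3 effect averaged over the other 5 conditions, a contrast added after the data had been seen. It called 1502 genes (8.75%), 969 higher and 533 lower, ENSRNOG00000028956 included. The same culture numbers recur in these 5 conditions and the fit had no block. Their libraries were thus counted as independent replicates, which they may not be. Of the other 968 higher genes, 867 (89.6%) had a positive value in magnesium-free medium at 24 h, as did 51.8% of all tested genes. Their median was 0.34 here and 0.64 there. Of the 533 lower genes, 420 (78.8%) had a negative value here, as did 47.4% of all tested genes, with a median of -0.21 here and -0.41 there. One construct had no count here for 8 of the higher and 14 of the lower genes, and with those set to a floor of 3 counts per library the medians here were 0.34 and -0.21.

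An unadjusted p under 0.05 with the same sign was reached here by 109 (11.3%) of those higher genes and 84 (15.8%) of those lower genes. The shares over all tested genes were 2.69% and 3.18%. All 3 pairs had the same sign in 598 of the 968 higher and 230 of the 533 lower genes. Over all tested genes, 19.5% were higher and 15.0% lower in all 3 pairs. By culture, the median of the higher genes was 0.37, 0.22 and 0.40, and that of the lower genes -0.28, -0.11 and -0.22, so each culture moved in the listed direction and culture 2 least.

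The length of this list depended on the cultures. It held 1971 genes without culture 1, 260 without culture 2 and 282 without culture 3. The share with the same sign here was 85.7% of the 1501 genes, 88.3% to 89.6% when 1 culture number was left out everywhere, and 79.5% without GFP culture 1 of this condition alone.

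**Figure D5:**
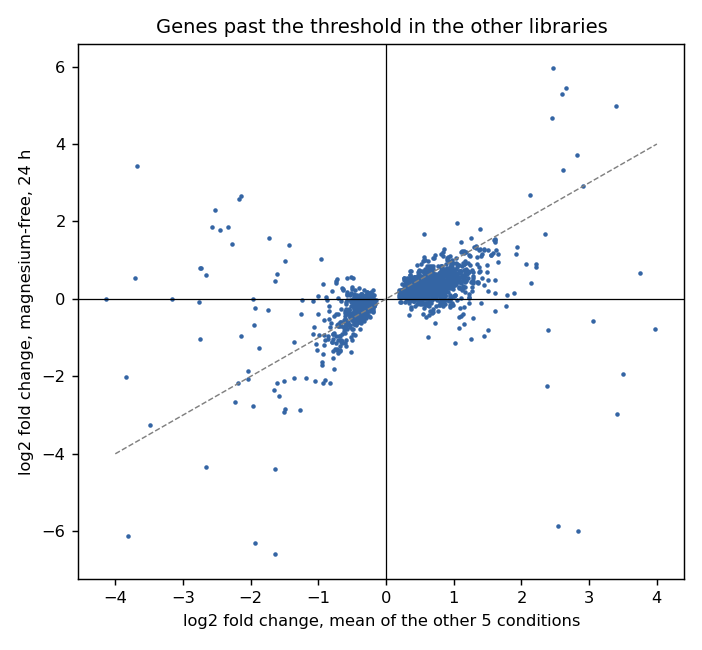
Log2 fold change of rMBD3 over GFP in magnesium-free medium at 24 h against the mean of the other 5 conditions, for the 1501 genes past the threshold there apart from ENSRNOG00000028956. The dashed line marks equal values. Most points lie in the quadrants of equal sign and nearer to 0 here, as the medians show.

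Set against untransfected cultures, the constructs gave different counts of genes. No gene of 17172 passed between GFP and untransfected cultures (0%, edgeR), and DESeq2 called 8. An unadjusted p under 0.05 was reached by 753 genes, which is not a count of changed genes. Between rMBD3 and untransfected cultures 21 genes passed (0.122%), 13 higher and 8 lower, with ENSRNOG00000028956 and ENSRNOG00000020030 among them. With the culture block the rMBD3 count was 122 and the GFP count 1. The rMBD3 count was 189 without culture 1, 6 without culture 2, 5 without culture 3 and 6 without untransfected culture 1 alone.

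Properties that the choice of samples did not use were also described. Among genes with a mean log2 CPM of at least 1, the median log2 fold change was -0.045 for 3081 genes spanning under 10 kb, 0.019 for 5703 genes of 10 to 50 kb and 0.058 for 1857 genes of 50 to 100 kb. It was 0.113 for 1746 genes of 100 to 500 kb and 0.045 for 174 genes over 500 kb. With magnesium at 24 h the medians in that order were -0.063, 0.062, 0.113, 0.118 and -0.342. The medians did not keep 1 sign over the cultures except from 100 to 500 kb (0.153, 0.049 and 0.087). In culture 2 the 3 classes up to 100 kb had medians of 0.025, -0.014 and -0.016, the opposite signs of cultures 1 and 3, and over 500 kb culture 3 was the one that differed (-0.050).

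On the mitochondrial chromosome, 25 genes were tested and none passed (smallest adjusted p = 0.835, edgeR), with 2 at an unadjusted p under 0.05. Transcripts seen in one construct alone were few. At least 5 counts in every GFP library and at most 1 in every rMBD3 library were found for 7 genes, and the reverse for 15 genes. Of these, 1 and 4 had at least 5 counts in every untransfected library. The numbers to be met if the constructs do not differ were not computed, so these counts are a description.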

How the data were processed

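The authors deposited raw read counts per gene, made per the file headers with featureCounts 2.0.0 on read pairs, strand setting 2, mapping quality of at least 3, primary alignments and Ensembl release 105 of mRatBN7.2. The labels' protocols name STAR and rn6 instead. Coordinates are those of the count table. The deposited log2 table was not used.

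Genes (30560) were filtered with filterByExpr (minimum count 10, minimum total 15) to 17172. Libraries were scaled by TMM and fitted with edgeR 4.0.16 (R 4.3.3) over all 54 libraries and 18 groups, with no block. The Benjamini-Hochberg adjustment ran over all tested genes, with a threshold of 0.05. Pair differences are log2 CPM with a prior count of 2. The SE of a fitted log2 value is its absolute value over the square root of the F statistic of its test. It is thus approximate, most of all for genes with few or no counts in a group.

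Culture numbers come from the labels. Deviations of same-numbered rMBD3 and GFP libraries correlated by 0.426, 0.314 and 0.225, and those of different numbers by -0.399 to 0.228, the highest for rMBD3 culture 3 with GFP culture 2. Every same-numbered value was over 0.1, and the labelled numbers were taken as pairs. The different-numbered 0.228 was over 0.1 too and above 0.225, so these values do not establish the pairing. Whether cultures came from separate litters is not given. The p-values of the main fit rest on the spread between libraries within groups, estimated over all 54 libraries. Culture numbers repeat across the 18 groups, and that fit treated the libraries as independent.

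Genes named were those past the threshold and, in each direction, the 12 with the largest change under the criteria given with them. Gene lists and cell type markers need symbols, 0 identifiers matched, and they were not analysed here. At most 4 identifiers are printed, with a few further genes by position. The comparison, members and lists were chosen with earlier results of these data known. The scripts were tested on simulated data. Alternatives included DESeq2 1.42.0.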

Additional observations from a re-analysis of the deposited data

How the results depend on the processing

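The count of 4 genes between rMBD3 and GFP held with the replicate block, RLE factors, library size alone and no low-count filter. It became 17 with the block per time point, 9 with DESeq2 and 1 with only the 24 h libraries. With only the groups compared it became 0, with or without the block. Of the 14384 genes tested there, 451 without and 1774 with the block had an unadjusted p under 0.05. Leaving out libraries gave 1 to 4. The cause of these changes was not tested. The block and DESeq2 fits above used all 54 libraries, while those of the 24 h libraries or compared groups and those with libraries left out used fewer. ENSRNOG00000028956 passed in each fit except those of the compared groups alone.

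The rMBD3 against untransfected count of 21 became 122 with the replicate block, 488 with the block per time point, 175 with DESeq2, 3 with the 24 h libraries and 0 with only the groups compared, with or without the block. Leaving out libraries gave 5 to 189. The GFP against untransfected count of 0 became 1 with the replicate block, 4 with the block per time point and 8 with DESeq2.

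The difference between media went from 0 to 1 gene with the block per time point and 2 with DESeq2, and 0 to 2 when libraries were left out. The difference between 24 and 2 h became 4 with DESeq2, and 0 to 1 when libraries were left out. That between 24 and 6 h became 4 with DESeq2. The replicate block changed no other count of calls by over 1.5 times, apart from the average over the other 5 conditions, which went from 1502 to 2551 genes (3709 with the block per time point).

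Signs turned for near-zero or scarce values. The media difference of ENSRNOG00000028956 was 0.04, -0.014 with the groups compared and replicate block, and -0.21 to 0.16 when libraries were left out. That of ENSRNOG00000009803 ran from -4.85 to 0.30, and the GFP against untransfected value of ENSRNOG00000019942 from -0.079 to 3.80, when libraries were left out. The turn came without culture 3 for ENSRNOG00000009803 (0.30) and without culture 1 for ENSRNOG00000019942 (-0.079). What caused these turns was not tested. The SE was largest for scarce genes.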
